A study of Mus musculus with 2 samples.

Results

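The 9 genes described here make, hold or break down glycogen, the branched store of glucose, and were taken by symbol from the 32285 genes listed in both libraries of the series. They are Ugp2, Gyg, Gys1 and Gbe1 of synthesis, Ppp1r3b and Ppp1r3c, which bring protein phosphatase to glycogen, and Pygl, Pygb and Gaa of breakdown. All 9 were detected at both time points. The study sequenced single lung cells of Cdh16CreERT2;tdTomatoflox/flox mice (the genotype in the sample labels; the series text gives the reporter allele as flox/wt), in which a tamoxifen-inducible recombinase driven by Cdh16 switches on a red fluorescent reporter. Pregnant females received tamoxifen from embryonic day 12.5, by injection at 0.1 mg/kg or in the diet at 0.4 g/kg, and red cells within a CD326 (Epcam) stain were sorted. One library came from fetal lung at E18.5 (days of embryonic development) and the other from lung at P10 (days after birth), both with batch label 1, and each time point therefore has 1 library and no replicate. No untreated, unlabelled or wild-type library was analysed here. The number of animals behind each library, their sex and the route of tamoxifen are not given in the sources used here.

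Glycogen is built from UDP-glucose: UDP-glucose pyrophosphorylase (Ugp2) makes the sugar donor, glycogenin (Gyg) primes the chain, glycogen synthase (Gys1) extends it and the branching enzyme (Gbe1) branches it. Targeting subunits such as Ppp1r3b, the form long studied in liver, and Ppp1r3c, also called protein targeting to glycogen, hold protein phosphatase 1 on the particle, where it activates the synthase and turns off the phosphorylase. Phosphorylases (Pygl of the liver type, Pygb of the brain type) free glucose 1-phosphate in the cytosol, and acid alpha-glucosidase (Gaa) degrades glycogen in lysosomes. In the lung, fetal precursors of alveolar type 2 (AT2) cells, which make surfactant, are known to hold large glycogen stores that are drawn down around birth. Flat alveolar type 1 (AT1) cells form the gas exchange surface.

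The proximal promoters of 3 members are shown because 2 of them, Ppp1r3c and Pygl, were much lower at P10 in AT2-like cells while the third, Gaa, differed little, and all 3 hold the motif searched. Each stretch is 120 bases of RefSeq sequence (GRCm38.p6), on the strand of the gene and 5′ to 3′, from 210 to 91 bases before the RefSeq start. Capitals mark ACGTG, the core of the hypoxia response element, or its reverse complement CACGT, and CACGTG, the E-box, holds both. Ppp1r3c is at chr19:36736695-36736814 (minus strand), Pygl at chr12:70227774-70227893 (minus strand) and Gaa at chr11:119267753-119267872 (plus strand).
Ppp1r3c: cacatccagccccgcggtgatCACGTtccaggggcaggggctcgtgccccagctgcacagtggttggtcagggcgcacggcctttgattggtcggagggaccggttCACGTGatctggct
Pygl: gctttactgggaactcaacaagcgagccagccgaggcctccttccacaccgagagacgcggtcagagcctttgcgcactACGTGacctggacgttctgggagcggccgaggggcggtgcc
Gaa: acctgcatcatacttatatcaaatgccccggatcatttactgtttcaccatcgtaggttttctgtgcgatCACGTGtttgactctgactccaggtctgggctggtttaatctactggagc
The Ppp1r3c stretch holds CACGT 189 bases before the start and an E-box that begins 104 bases before it, the Pygl stretch holds a single ACGTG at 131, and the Gaa stretch an E-box at 140. Of the 9 members 8 had a promoter entry, with 9 starts between them, and Ppp1r3b, which had none, was not searched. Of those searched 5 members (Ugp2, Ppp1r3c, Pygl, Pygb and Gaa) had ACGTG on either strand within the 250 bases before a start. Across 32851 windows of that length, 16.6% held ACGTG and 6.02% held CACGTG. The motif was thus present in members that differed between the libraries and in members that did not, and a match of letters is not evidence of binding. The Pygl window lies inside the annotated span of the gene, upstream of a RefSeq start within it. That span is overlapped by F730035M05Rik on the opposite strand, and an overlap with the window itself was not checked.

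Transcripts were counted by their unique molecular identifiers (UMIs), 137837590 in the 12739 barcodes of E18.5 and 171205348 in the 14503 barcodes of P10. A filter of 500 genes, 1000 UMIs and a mitochondrial share of no more than 20% left 12027 and 14086 cells, with medians of 8959 and 10250.5 UMIs. Kept cells of the 2 libraries shared 52 barcode sequences. Clusters were named from marker genes, so a class is called "like" a cell type. At E18.5 there were 2240 AT2-like and 3324 AT1-like cells, 675 airway and 1496 non-epithelial cells. At P10 there were 8128 AT2-like, 147 airway and 1982 non-epithelial cells, and no cluster was named AT1-like. The labels call the cells alveolar epithelial, yet 12.4% (E18.5) and 14.1% (P10) were non-epithelial, beside a further 11.6% and 5.31% in non-epithelial clusters that carried alveolar RNA and were left out of the sums. Sftpc, the surfactant gene of AT2 cells, reached 20.8% (E18.5) and 34.2% (P10) of its AT2-like level in non-epithelial cells, and the part of free RNA and doublets in the levels of the other cells was not tested.

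Levels are given in CPM, the UMIs of a gene as counts per 1000000 UMIs of the summed cells, with 95% exact intervals in brackets that cover counting error only. Because 1 library stands for each time point, a difference between time points is a difference between 2 libraries, with no replicate check and no p-value. A gene was taken as measured once one of the 2 sums compared reached 10 CPM, and was called higher or lower from a 2-fold ratio upward. Fewer cells holding a transcript and less of it per cell cannot be told apart in a sum. Reads of the 3′ end are not scaled by gene length, so levels are compared between cells and libraries and never between genes.

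In AT2-like cells both targeting subunits and the liver-type phosphorylase were far lower at P10 than at E18.5, while the enzymes that build the chain differed by less than 2-fold. Of the 9 members 3 (Ppp1r3b, Ppp1r3c and Pygl) were at least 2 times lower at P10, against 9.07% of the 8349 genes measured in these cells. No member was at least 2 times higher, against 15.1% of those genes. The members were chosen with earlier results of these data known, so neither these nor the later comparisons with all genes are a test. The median log2 ratio of the 9 members was -0.36 and that of all measured genes 0.23. These sums held 20662882 UMIs at E18.5 and 94778851 at P10.

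**Figure D1:**
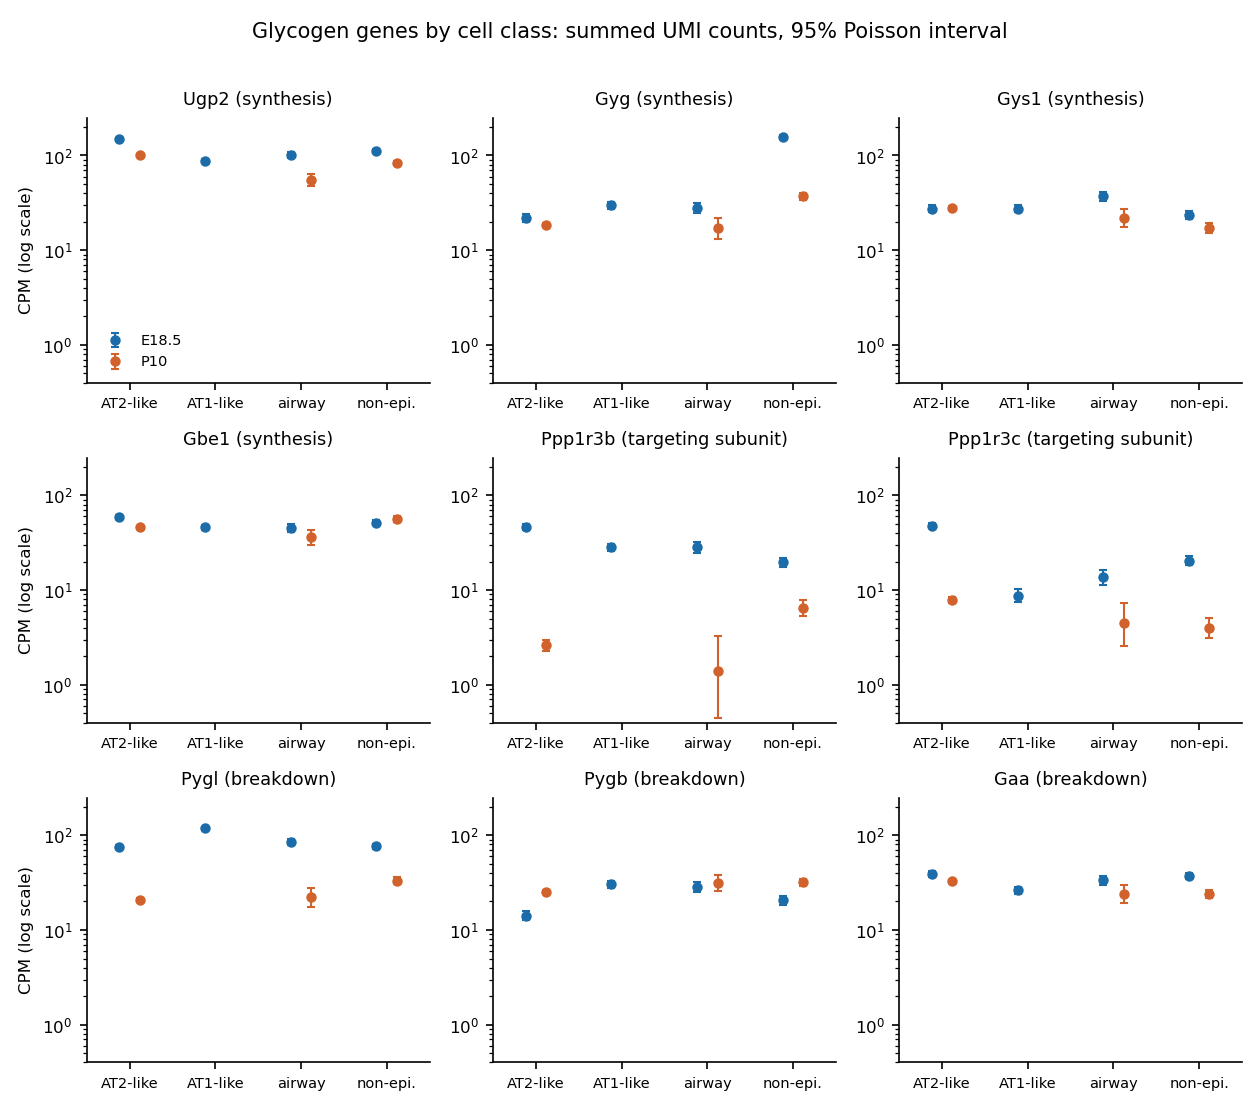
Level of each of the 9 members (CPM, log axis) in AT2-like, AT1-like, airway and non-epithelial cells of the E18.5 (blue) and P10 (orange) library, with the role of each gene in its title. Points are sums over all cells of a class and bars 95% Poisson intervals. No AT1-like class was named at P10. The P10 points of Ppp1r3b, Ppp1r3c and Pygl lie below the E18.5 points in each class drawn.

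Ppp1r3b (chromosome 8, 35375739 to 35388139, plus strand) had 956 UMIs in the AT2-like cells of E18.5, or 46.3 CPM (43.4 to 49.3). At P10 it had 248 UMIs in a sum more than 4 times as large, or 2.62 CPM (2.30 to 2.96). It was 17.7 times lower at P10 (15.4 to 20.4), the largest ratio among the members. After every cell was thinned to 3000 UMIs, a Ppp1r3b UMI was found in 12.6% of AT2-like cells at E18.5 (11.2 to 14.1) and in 0.767% at P10 (0.587 to 0.984). Without thinning the shares were 30.5% and 2.85%. In thinned non-epithelial cells the shares were 6.07% and 2.30%. Among these, the P10 share was 8.66% in myeloid-like and 0.767% in endothelial-like cells. Whether the P10 share of AT2-like cells is background was not tested. Thinning left out 217 AT2-like and 211 non-epithelial shallower cells at E18.5, and 174 and 414 at P10.

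Ppp1r3c (chromosome 19, 36731731 to 36736653, minus strand) had 988 UMIs in the same E18.5 cells, 47.8 CPM (44.9 to 50.9). In those of P10 its 743 UMIs gave 7.84 CPM (7.29 to 8.42). That is 6.10 times lower at P10 (5.54 to 6.72). The thinned share of AT2-like cells with a UMI was 11.8% at E18.5 and 2.14% at P10, against 27.6% and 7.96% without thinning. In thinned non-epithelial cells it was 6.07% and 0.893%. Both targeting subunits were thus below the level of 10 CPM in the AT2-like cells of P10, and of the 5 other subunits of this family on the list (Ppp1r3a, Ppp1r3d, Ppp1r3e, Ppp1r3f and Ppp1r3g), none reached it at either time point.

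The E18.5 value of Ppp1r3c differed between the 2 AT2-like clusters of that library. It was 45.4 CPM in the large cluster of 2039 cells and 162 CPM (126 to 205) in 201 shallow cells with a median of 1597 UMIs, led by Il31ra and Lars2. Ppp1r3b stood at 45.3 and 90.4 CPM in the same clusters. The 5 AT2-like clusters of P10 lay closer together, from 6.52 to 8.68 CPM for Ppp1r3c and from 2.03 to 3.13 CPM for Ppp1r3b. The lowest E18.5 cluster thus stood above the highest P10 cluster for both genes, although clusters share a library and are not replicates.

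Among the breakdown genes, Pygl (chromosome 12, 70190811 to 70231488, minus strand) had 1556 UMIs or 75.3 CPM (71.6 to 79.1) in AT2-like cells of E18.5. The 1986 UMIs of P10 gave 20.95 CPM (20.04 to 21.9). It was 3.59 times lower at P10 (3.36 to 3.84). The P10 level was still above 10 CPM, and the thinned share of cells with a UMI went from 20.1% to 5.91%, against 44.8% and 19.6% without thinning and 16.7% and 7.53% in thinned non-epithelial cells. Pygb (chromosome 2, 150786735 to 150831758, plus strand) differed in the other direction, at 14.2 CPM (12.6 to 16.0) and 25.2 CPM (24.2 to 26.2), a ratio of 1.77 (1.57 to 2.00) that stayed below 2. The counts of the 2 phosphorylases thus differed in opposite directions in the same cells. Gaa (chromosome 11, 119267887 to 119285454, plus strand) was at 38.9 and 32.6 CPM, a ratio of 0.84 (0.78 to 0.91).

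The 4 synthesis genes differed little in AT2-like cells. Gys1 (chromosome 7, 45434844 to 45456619, plus strand) went from 27.4 CPM (25.2 to 29.7) to 28.0 CPM (27.0 to 29.1), and the interval of its ratio, 0.93 to 1.12, holds 1. Gyg (chromosome 3, 20122084 to 20155317, minus strand) was at 21.8 and 18.6 CPM, and Gbe1 (chromosome 16, 70313949 to 70569716, plus strand) at 59.2 and 46.3 CPM. Ugp2 (chromosome 11, 21321138 to 21371201, minus strand) went from 148 CPM (143 to 154) to 102 CPM (99.5 to 104), 1.46 times lower at P10 (1.40 to 1.52). None of the 4 was past 2-fold. Gbe1 spans 255.768 kb, and the 500 genes nearest to it in length had a median log2 ratio of 0.87 against its own -0.36. Set against those genes Gbe1 was past 2-fold lower, at -1.23, and Ppp1r3b, Ppp1r3c and Pygl set in the same way were at -4.04, -2.28 and -2.17.

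The rest of the pathway was read from 3 further lists in the same AT2-like cells. Of 15 other breakdown genes 9 were measured, 3 of them at least 2 times higher at P10 and 2 at least 2 times lower, against the 15.1% and 9.07% of all measured genes. The higher ones were Phkb, Phka1 and Pygm: Phkb and Phka1 encode subunits of phosphorylase kinase, which activates the phosphorylases, and Pygm is the muscle-type phosphorylase. Phkb went from 36.2 to 86.2 CPM, a ratio of 2.38 (2.21 to 2.57). Phka1 went from 26.7 to 58.7 CPM (ratio 2.20) and Pygm from 9.49 to 20.6 CPM (ratio 2.17). Ratios of the 3 lists were not set against genes of like length, as those of the members were. Stbd1, a glycogen-binding protein of the autophagy route, was lower, from 87.2 CPM down to 26.6 CPM, a ratio of 0.31 (0.29 to 0.32).

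Of 15 other genes of synthesis and targeting 7 were measured in AT2-like cells, and none passed 2-fold in either direction. Pgm2l1, which makes glucose 1,6-bisphosphate, came nearest, at 7.79 and 15.5 CPM and a ratio of 1.99 (1.69 to 2.35). The catalytic phosphatase subunits, to which the targeting subunits bind, had ratios of 0.89 (Ppp1ca), 1.47 (Ppp1cb) and 1.03 (Ppp1cc). Of 8 genes of glucose entry 4 were measured and 1 was at least 2 times lower at P10, against 9.07% of all measured genes, and none higher, against 15.1%. This was Slc2a1, the glucose transporter GLUT1, which went from 62.5 to 25.7 CPM, 2.43 times lower (2.27 to 2.60). The list of 10 genes known to respond to low oxygen, Slc2a1 not among them, summed to 1678 CPM in AT2-like cells at E18.5 and 597 CPM at P10. Its sums also differed in airway cells (1574 and 468 CPM) and non-epithelial cells (1720 and 492 CPM). Its part in the member differences was not tested.

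**Figure D2:**
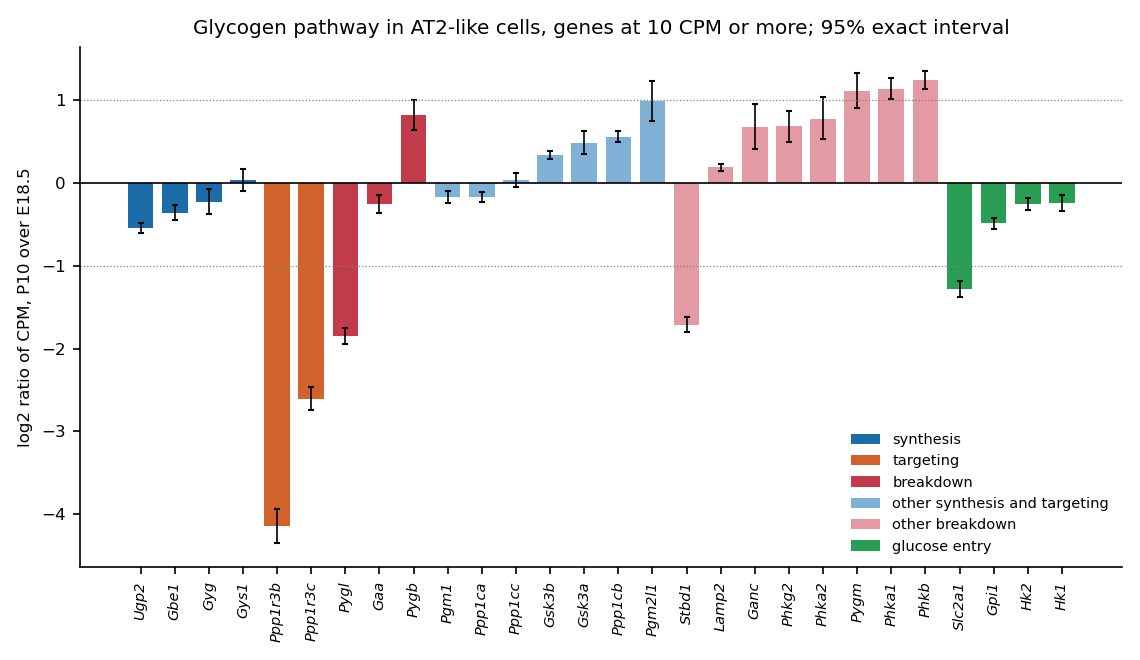
Log2 ratio of CPM, P10 over E18.5, in AT2-like cells for the members and the measured genes of 3 further pathway lists, with 1 breakdown gene left out, coloured by list, with 95% exact intervals and dotted lines at 2-fold. Ppp1r3b at -4.14, Ppp1r3c at -2.61, Pygl at -1.85 and Stbd1 at -1.71 lie lowest, and Phkb at 1.25 highest.

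In airway cells the same 3 of 9 members were at least 2 times lower at P10, against 16.9% of 9498 measured genes, and none at least 2 times higher, against 7.98%. The median log2 ratio was -0.75 for the members and -0.23 for all measured genes. Ppp1r3b was at 28.3 CPM (24.9 to 31.9) at E18.5 and, with 5 UMIs, at 1.39 CPM (0.45 to 3.24) at P10. Ppp1r3c was at 13.6 and 4.45 CPM and Pygl at 85.1 and 22.2 CPM there. The airway class was 2 clusters at E18.5, ciliated-like (450 cells) and club-like (225 cells). At P10 it was a single cluster of 147 cells with markers of both. Its club markers summed to 68354 CPM (E18.5) and 182251 CPM (P10), its ciliated markers to 4482 and 1078 CPM. Sftpc in it was 14.8% and 39.3% of the AT2-like level. The airway ratios thus compare unlike mixes of cells, and the part of this was not tested. The P10 levels of Ppp1r3b, Ppp1r3c and Pygl were below those of either E18.5 cluster. The lower of these was 20.8, 10.6 and 58.6 CPM. In endothelial-like cells Ppp1r3b went from 24.6 to 1.58 CPM, Ppp1r3c from 25.6 to 5.37 CPM and Pygl from 63.6 to 12.3 CPM, 5.17 times lower (3.99 to 6.75). In pericyte or smooth muscle-like cells the levels were 27.1 and 4.02 CPM for Ppp1r3b, 21.4 and 5.70 CPM for Ppp1r3c, and 73.6 and 19.8 CPM for Pygl. The share of all genes lower at P10 was not computed for these 2 cell types.

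Over all non-epithelial cells 4 of 9 members were at least 2 times lower at P10 and none at least 2 times higher, against 8.39% and 16.8% of 10227 measured genes. Ppp1r3b was at 19.7 CPM (17.6 to 21.9) and 6.48 CPM (5.33 to 7.79), Ppp1r3c at 20.4 and 3.99 CPM and Pygl at 76.4 and 33.2 CPM. Gyg was the fourth, at 157 CPM (151 to 163) and 37.0 CPM (34.2 to 40.0). The median log2 ratio of the 9 was -0.63, and that of all measured genes 0.21. The make-up of the class differed between the libraries: it held 400 fibroblast-like cells at E18.5 and none at P10, and 36 lymphoid-like cells at E18.5 and 761 at P10. With the mean taken over cells in place of the sum, 2 of 9 members were lower, and the log2 ratios of Ppp1r3b and Pygl were -0.43 and -0.25. Without myeloid-like clusters the log2 ratio was -3.20 for Ppp1r3b and -2.52 for Pygl, against -1.60 and -1.20 with them. That of Gyg was -2.08, or -2.85 without myeloid-like clusters and -1.08 with the clusters that carried alveolar RNA counted in.

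Gyg, the primer of the chain, was highest in the fibroblast-like cells of both libraries. At E18.5 it was at 584 CPM (558 to 611) in the 400 cells led by Mfap4, Col1a1 and Mgp, 26.8 times its level in AT2-like cells (24.2 to 29.8), and a UMI was found in 84.75% of them. The next highest of the 24 E18.5 clusters had 98.1 CPM and the median cluster 36.2 CPM. At P10 the 140 cells led by Mfap4, Col1a1 and Inmt, which carried alveolar RNA, had 188 CPM (169 to 209), again the highest of 24 clusters, with 97.2 CPM in the next. Between these 2 clusters, paired by their leading genes after the values were seen, Gyg was 3.11 times lower at P10 (2.77 to 3.49). In pericyte or smooth muscle-like cells Gyg went from 69.2 to 23.1 CPM, while in endothelial-like cells it was at 41.9 and 37.6 CPM.

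Among the 5 classes compared over time, myeloid-like cells were the one in which Ppp1r3b and Pygl were not lower. Ppp1r3b was at 14.1 CPM (81 UMIs) at E18.5 and 25.4 CPM (77 UMIs) at P10, a ratio of 1.80 (1.30 to 2.49). Pygl was at 91.7 and 133 CPM, a ratio of 1.45 (1.27 to 1.66), and Ppp1r3c at 10.6 and 1.98 CPM, a ratio of 0.19 (0.07 to 0.43). The clusters behind these sums differ: the P10 sum holds 303 cells led by S100a9 and S100a8, genes of neutrophils, and the corresponding E18.5 cluster of 219 cells carried alveolar RNA and was outside the sum. In the P10 cluster Ppp1r3b reached 48.6 CPM (37.7 to 61.7), 18.6 times the AT2-like level of that library, and Pygl 199 CPM (176 to 224), 9.48 times that level. Ppp1r3b had a UMI in 18.48% of those cells and Pygl in 50.2%, at a median depth of only 2598 UMIs. Sftpc in the P10 myeloid-like cells stood at 28.9% of its AT2-like level, and Ppp1r3b in them at 970%.

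At P10 this S100a9-led cluster was the only one of 24 with Ppp1r3b at 10 CPM or more, and the next highest had 6.04 CPM. At E18.5 all 24 clusters were above that level, from 10.2 to 90.4 CPM. Pygl ranged from 57.4 to 129 CPM over the E18.5 clusters. At P10 it ranged from 0 to 199 CPM with a median of 19.7 CPM, and the lymphoid-like cluster led by Igkc had 7.97 CPM. Set cluster against cluster, the S100a9-led cells had 31.4 CPM of Ppp1r3b at E18.5 and 48.6 CPM at P10, a ratio of 1.55 (1.10 to 2.17), and 116 and 199 CPM of Pygl, a ratio of 1.72 (1.45 to 2.03). The myeloid-like clusters led by Wfdc17 (E18.5) and by Chil3 (P10), both with Ccl6, had 15.5 and 6.04 CPM of Ppp1r3b, 2.56 times lower at P10 (1.31 to 5.61). Their Pygl levels, 95.9 and 78.5 CPM, had a ratio whose interval, 0.67 to 1.00, reaches 1. These pairs were also chosen after the values were seen.

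**Figure D3:**
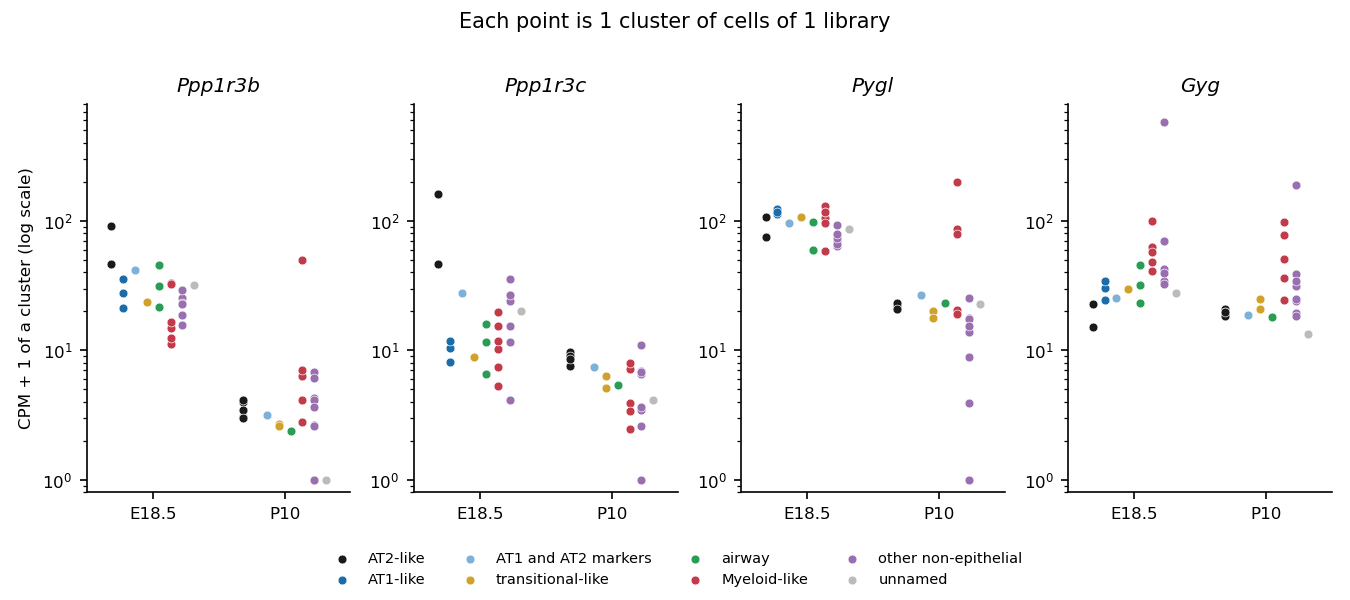
Level (CPM + 1, log axis) of Ppp1r3b, Ppp1r3c, Pygl and Gyg in each of the 24 clusters of the E18.5 and of the P10 library, coloured by class, with clusters that carry alveolar RNA included. The P10 point at 48.6 CPM of Ppp1r3b and 199 CPM of Pygl is the S100a9-led myeloid-like cluster, and the highest Gyg point of each library (584 and 188 CPM) is the fibroblast-like cluster.

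Gbe1 and Pygb showed smaller differences between classes over time. Gbe1 was lower at P10 in AT2-like cells (ratio 0.78, 0.73 to 0.83) and higher in endothelial-like cells, at 55.6 and 70.9 CPM, a ratio of 1.27 (1.08 to 1.51). Pygb had a ratio above 1 in AT2-like, endothelial-like (1.44, 1.08 to 1.95) and all non-epithelial cells (1.54, 1.34 to 1.76), and in airway cells an interval of 0.87 to 1.38. Gys1 had a ratio of 0.67 (0.47 to 0.94) in myeloid-like cells and 1.04 (0.77 to 1.41) in endothelial-like cells. None of these reached 2-fold.

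**Figure D4:**
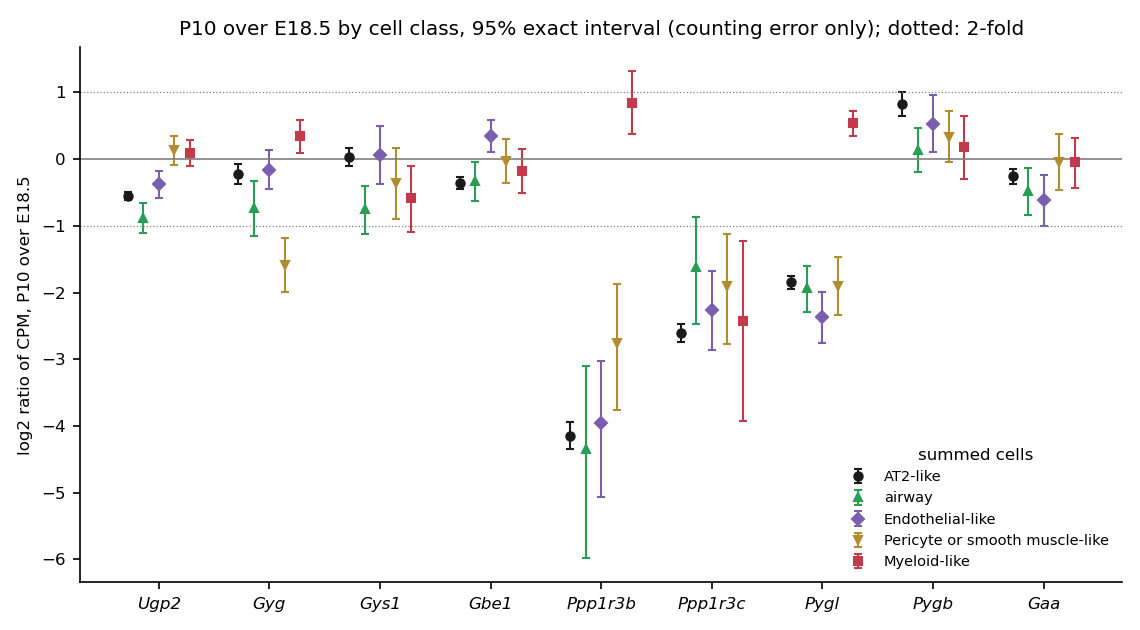
Log2 ratio of CPM, P10 over E18.5, of each member in AT2-like, airway, endothelial-like, pericyte or smooth muscle-like and myeloid-like cells, with 95% exact intervals (counting error only) and dotted lines at 2-fold. Ppp1r3c lies below 0 in all 5 classes, and Ppp1r3b and Pygl in all but the myeloid-like cells, where the ratios are 1.80 and 1.45.

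Within the E18.5 library cell classes of a single library could be compared. Both targeting subunits were higher in AT2-like than in non-epithelial cells, Ppp1r3b 2.35 times (2.07 to 2.67) and Ppp1r3c 2.34 times (2.07 to 2.65), and they were the 2 of 9 members past 2-fold (1 of 9 without myeloid-like clusters, where Ppp1r3c stood at a log2 ratio of 0.91), against 5.37% of 9351 measured genes. In the other direction 1 of 9 was past 2-fold, Gyg, 7.19 times lower in AT2-like cells (6.51 to 7.97), against 22.5% of genes. Pygl was alike, at 75.3 and 76.4 CPM, and the interval of its ratio ran from 0.91 to 1.06. By non-epithelial cell type, Ppp1r3c ran from 6.54% of its AT2-like level in lymphoid-like to 72.8% in fibroblast-like cells (34.8 CPM). The lymphoid-like value rests on 1 UMI in 36 cells, or 3.13 CPM (0.08 to 17.4), and the next lowest was 22.2% in myeloid-like cells. Ppp1r3b ran from 30.5% in myeloid-like to 58.6% in pericyte or smooth muscle-like cells. Over all non-epithelial cells the level of Ppp1r3b was 42.5% of the AT2-like level and that of Sftpc 20.8%. In AT1-like cells these were 61.4% and 5.71%, and the part of free RNA in them was not tested. Among the other genes of the pathway, Pgm1, which makes glucose 1-phosphate, was also higher in AT2-like cells, at 96.0 against 41.3 CPM (2.33 times, 2.13 to 2.54).

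Between the alveolar classes of E18.5 the targeting subunits parted. Ppp1r3c was at 47.8 CPM in AT2-like and 8.71 CPM (7.401 to 10.2) in AT1-like cells, 5.49 times higher in AT2-like cells (4.64 to 6.54). Ppp1r3b was at 46.3 and 28.4 CPM, 1.63 times higher (1.46 to 1.81). The phosphorylases stood the other way: Pygl was at 118 CPM (113 to 123) in AT1-like cells against 75.3 CPM, and Pygb at 30.3 against 14.2 CPM, 2.13 times lower in AT2-like cells (1.85 to 2.46). With 1 of 9 members past 2-fold in each direction, the background was 9.64% of 8454 genes higher and 16.8% lower in AT2-like cells. The Pygb ratio stayed past 2-fold under 6 of 10 alternative settings, with a log2 size of 0.81 to 1.17. Gys1 was at 27.4 CPM in both classes, with a ratio interval of 0.89 to 1.13. Sftpc in AT1-like cells was 5.71% of its AT2-like level, and these cells were shallower, with a median of 4785 UMIs against 8832.5.

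Pathway genes also differed between the alveolar classes of E18.5. Hexokinase genes were higher in AT2-like cells, Hk2 at 90.65 against 30.9 CPM (2.93 times, 2.67 to 3.23) and Hk1 at 51.4 against 23.03 CPM (2.23 times), and their products trap glucose in the cell by phosphorylating it. Stbd1 was at 87.2 against 36.3 CPM (2.40 times higher). Pgm1 was 2.02 times higher in AT2-like cells (1.86 to 2.19). Phka2, the liver form of a phosphorylase kinase subunit, was 4.33 times lower in AT2-like cells. Slc2a1 was at 62.5 CPM in both. In counts, 2 of 4 measured genes of glucose entry, 1 of 7 of other synthesis and 1 of 8 of other breakdown were past 2-fold higher in AT2-like cells, against 9.64% of all measured genes, and 2 of the breakdown genes lower, against 16.8%.

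The 2 airway clusters of E18.5 are given as values, with no test of their difference. In club-like cells Ppp1r3b was at 44.55 CPM, near the AT2-like 46.3 CPM, while ciliated-like cells had 20.8 CPM. Ppp1r3c was at 10.6 and 15.02 CPM in them, with overlapping intervals (7.22 to 15.1 and 12.2 to 18.3), against 47.8 CPM in AT2-like cells. Gys1 was at 19.2 CPM in club-like and 45.2 CPM in ciliated-like cells. The 1545 E18.5 cells with both AT1 and AT2 markers lay between the 2 alveolar classes, at 26.8 CPM for Ppp1r3c, 40.8 CPM for Ppp1r3b and 94.8 CPM for Pygl.

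Within P10 the contrast of AT2-like with non-epithelial cells was small. The 2 targeting subunits were below 10 CPM in both sums, and of the 7 members measured none was past 2-fold in either direction, against 5.27% of 9992 genes higher and 24% lower. Gyg came nearest, 1.99 times lower in AT2-like cells (1.81 to 2.17), and passed 2-fold under 5 of 13 alternative settings. Gys1 was 1.63 times higher in them (1.45 to 1.85). Pygl was 1.58 times lower in AT2-like cells, and its direction turned without myeloid-like clusters, from a log2 ratio of -0.66 to 0.81, and under the stricter cell filter, to 0.10. The 2752 transitional-like cells of P10 were alveolar cells of 2 clusters, 1609 cells led by Atf3 and Areg and 1143 led by Sprr1a and Sfn. The first had 3 of the 12 transitional markers raised and the second 8. In the sum of these transitional-like cells the members were within 2-fold of their AT2-like levels. Ppp1r3c was at 4.79 CPM against 7.84 CPM in AT2-like cells, which had 1.64 times as much (1.39 to 1.93), and Ppp1r3b at 1.66 against 2.62 CPM, or 1.58 times as much (1.20 to 2.11). Over the other 7 members the AT2-like level was between 0.81 times (Gbe1) and 1.16 times (Gys1 and Pygl) that of transitional-like cells. In the 148 P10 cells with AT1 and AT2 markers Ppp1r3c was at 6.43 CPM (3.32 to 11.2) and Pygl at 25.7 CPM.

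Whether members were found together was read from single cells. Among AT2-like cells of E18.5 thinned to 3000 UMIs, Ppp1r3c had a UMI in 15.7% of the 255 cells with Ppp1r3b (11.4 to 20.7) and in 11.2% of the 1768 cells without it (9.77 to 12.8), and the intervals overlap. Pygl was found in 23.1% and 19.6% of the same cells. Of 144 such ordered pairs over both libraries, with each pair of genes taken in both orders, the intervals did not overlap in 2. These are named because of their values. At E18.5 Ugp2 was in 25.9% of the cells with Ppp1r3b (20.6 to 31.72) and 33.9% of those without it (31.73 to 36.2). At P10 Pygb was in 10.3% of the cells with Gyg (7.48 to 13.7) and 6.83% of those without it (6.27 to 7.42). In the other order the intervals overlap for both. They were 7.75 to 12.4 and 12.1 to 15.9 for Ppp1r3b with and without Ugp2. For Gyg with and without Pygb they were 5.33 to 9.85 and 4.36 to 5.35. Over the 22 clusters of at least 50 cells in each library, Pearson's r of log2(CPM + 1) between Ppp1r3b and Ppp1r3c was 0.64 at E18.5 and -0.32 at P10, and between Ppp1r3b and Pygl 0.09 and 0.58. These clusters share a library, depth and free RNA, and at P10 most held few UMIs of Ppp1r3b, so the values describe these clusters only.

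Over the same clusters the genes most like each member, of 5852 candidates with a mean of at least 20 CPM, were ranked by the mean of the r of both libraries. For Ppp1r3c they were Pex3 (0.83), Morc4 (0.80) and Meg3 (0.79), and for Gyg they were Fn1 (0.83), G0s2 (0.78) and Lrp1 (0.74). For Ppp1r3b they were Prkd3 (0.60), Pglyrp1 (0.59) and Mettl9 (0.56), the lowest values of the 9 members. For Pygl they were Rab11fip1 (0.76), Iqgap1 (0.75) and Anxa11 (0.73), and for Pygb Hmgxb3 (0.73), Pwwp2a (0.71) and Vezt (0.70). For Gaa they were Glul (0.79), Sugct (0.75) and Nenf (0.75), for Ugp2 Pld1 (0.74), Lmo4 (0.70) and Slc25a1 (0.68), for Gys1 Ccp110 (0.75), Pcnt (0.75) and Sipa1l3 (0.75), and for Gbe1 Wipi2 (0.71), Simc1 (0.70) and Tsc22d2 (0.69). No member was among the leading 3 of another.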

How the data were processed

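The data are 2 single-cell libraries, 1 of E18.5 and 1 of P10, grouped by the time point in the labels. Per the file headers, the matrices are raw UMI counts that the authors produced in Cell Ranger 7.0.1. The submitters' processing notes name mm10 and Seurat 4.0.0 without their roles. Intron and strand handling were not given in the sources used here. Intron counting bears on long genes such as Gbe1 and strand on Ugp2, Gys1, Ppp1r3b and Pygl, each overlapped by a gene of the opposite strand. The tissue label of the P10 sample is embryonic, and its time point set its group.

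Each library was clustered on its own (scanpy 1.11.5, leidenalg 0.10.2, Python 3.11.15) on counts scaled to 10000 per cell, on the 2000 most variable genes (30 components, 15 nearest cells, resolution 1 in Leiden), without the members and the 38 other pathway genes. Clusters were named from marker lists of 15 classes. A raised marker had a UMI in 25% or more of the cells of a cluster and a level 3 or more times the 10th percentile of clusters, after adding 10 CPM to each. A non-alveolar name needed 3 raised markers and 35% of its list, and an alveolar name 3 of them and a median level of 0.5 on a scale between that percentile and the highest cluster. Non-alveolar clusters at 0.25 or more of the alveolar scale were kept out of the sums. Clusters with the other alveolar class at 0.25 were called mixed, those with more transitional than alveolar markers among their leading 10 genes transitional-like, and those whose leading genes went against the name, or that were shallow with no own marker among them, stayed unnamed. The naming rule was set after clusters were seen, and a rebuilt name may differ from that of the authors. Scrublet called 2 E18.5 cells (0.0166%) and 1 P10 cell (0.00710%) doublets, too few for it to have worked, and doublets remain.

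Counts were summed per class and given as CPM with exact Poisson intervals, ratios with exact conditional binomial intervals and shares with Clopper-Pearson intervals, all at 95%. The ratio code was tested on simulated data. Cells are not replicates, and with 1 library per time point no p-value was computed. Genes named beside the 9 members are those of the pathway lists with at least 10 CPM in AT2-like cells of either library, and for each member the 3 most like it over clusters. The counts over the pathway lists include 1 breakdown gene whose own values are not reported here. The members and lists were chosen with earlier results of these data known. Positions are from GENCODE vM21 (mm10), and promoter sequences from RefSeq. The 12 planned and 4 added alternative settings are described at the end.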

Additional observations from a re-analysis of the deposited data

Results flagged for a closer look

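Of the members, 4 had ratios between P10 and E18.5 whose intervals lay above 1 in 1 class of cells and below 1 in another. The difference between classes was itself not tested, since each time point has 1 library. For Ppp1r3b the ratio was 1.80 in myeloid-like cells and 0.049 in airway cells, and for Pygl 1.45 in myeloid-like cells and 0.19 in endothelial-like cells. The myeloid-like sum of P10 includes the S100a9-led cells, which that of E18.5 does not. In the Chil3-led cluster, the rest of the P10 sum, Ppp1r3b was at 6.04 CPM and Pygl at 78.5 CPM. Both values were below those of the E18.5 sum, 14.1 and 91.7 CPM. Neither gene was thus higher at P10 outside the S100a9-led cells, and their part in the ratios was not tested further. For Gyg the ratio was 1.27 in myeloid-like cells and 0.24 over all non-epithelial cells. That class held fibroblast-like cells at E18.5 only, as those of P10 carried alveolar RNA and were left out. For Gbe1 the ratio was 1.27 in endothelial-like cells and 0.78 in AT2-like cells.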

How the results depend on the processing

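Alternatives, 12 planned and 4 added after seeing the data, were run for 5 contrasts: AT2-like and non-epithelial cells over time, AT2-like against non-epithelial cells in each library, and AT2-like against AT1-like cells. Each ratio was rerun under 10 to 14 of them, and none past 2-fold changed sign. Ratios over time in airway, endothelial-like, pericyte or smooth muscle-like and myeloid-like cells and between paired clusters were not rerun. Some of the rerun ratios below 2-fold changed sign, among them Pygl between AT2-like and non-epithelial cells in both libraries. Of the recomputed ratios 152 moved past the interval of the reported value and 362 stayed within it. In AT2-like cells the log2 ratio between P10 and E18.5 lay between -4.31 and -3.93 for Ppp1r3b, -2.91 and -2.20 for Ppp1r3c and -2.17 and -1.83 for Pygl under 11 alternatives each, all past 2-fold. Over non-epithelial cells it lay between -3.20 and -0.43 for Ppp1r3b and between -2.52 and -0.25 for Pygl. Joint clustering named no AT2-like cells at E18.5, so it gives no value for them. No paired analysis was possible because the 2 groups share only replicate number 1.

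Counts of members past 2-fold moved as follows. Set against genes of like length, 4 members were lower at P10 in AT2-like cells, and at 1.5-fold 5 were lower in non-epithelial cells. With a minimum of 50 CPM, 1 member was lower at P10 in AT2-like cells, 2 were lower in non-epithelial cells, and at E18.5 there were 0 higher in AT2-like than in non-epithelial cells, 0 higher in AT2-like than AT1-like cells and 0 the other way. At 1.5-fold, 1 member was higher at P10 in AT2-like and 1 in non-epithelial cells, 1 was higher in AT2-like than non-epithelial cells at P10, and at E18.5 there were 3 higher in AT2-like and 2 higher in AT1-like cells. With the mean over cells of CPM, 2 were lower at P10 in non-epithelial cells. The count higher in AT2-like than non-epithelial cells at P10 was 1 after thinning and 1 with a denominator without abundant genes. That denominator gave 2 members higher in AT2-like than AT1-like cells and 0 the other way at E18.5. The count higher in AT1-like cells was also 0 at resolution 0.5, at resolution 2 and with the E18.5 unnamed Sprr1a-led cluster counted as AT2-like. The count higher in AT2-like than non-epithelial cells at E18.5 was 1 at resolution 0.5, 1 with that cluster and 1 without myeloid-like clusters. The cause was not tested for these, except that a higher minimum tests fewer genes and a lower fold admits more.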

Other observations

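Gaa was highest in the mesothelial-like cells of both libraries, the lining of the lung surface. At E18.5 it was at 120 CPM (96.6 to 148) in 57 cells, 3.09 times its AT2-like level, and the next of the 24 clusters had 53.3 CPM. At P10 it was at 54.2 CPM (37.6 to 75.8) in 33 cells, 1.66 times the AT2-like level (1.15 to 2.33). Ugp2 was also highest in the mesothelial-like cluster of E18.5, at 184 CPM (155 to 218), but the next cluster had 178 CPM, within that interval. At P10 it was highest in the myeloid-like cluster led by Chil3, at 152 CPM.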
